A study of Danio rerio with 14 samples.

Results

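The 9 posterior hox genes of paralog groups 7 to 10 described here are hoxb7a, hoxc8a, hoxa9a, hoxa9b, hoxb9a, hoxc9a, hoxd9a, hoxa10b and hoxb10a. They were found by gene symbol among the 8793 genes named on the Affymetrix zebrafish array, 42 of which are hox genes, and they carry 17 probe sets. Each gene was read first from whichever of its probe sets had the highest mean on the 14 arrays, and the other probe sets of the 6 genes that have several were read beside it. Values are log2 expression values, so that a difference of 1 is a doubling of signal.

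Hox genes encode homeodomain transcription factors that give cells their position along the body axis, and they lie in clusters whose gene order follows the order of their domains from head to tail. Genes at the anterior end of a cluster respond to retinoic acid (RA), a signal made from vitamin A, while genes of the middle and posterior groups come on later, in tissue that will form trunk and tail, under Cdx factors and Wnt and Fgf signals. Teleost fish kept extra clusters from a genome duplication, which is why hoxa9a and hoxa9b exist side by side where a mammal has a single Hoxa9.

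RNA was taken from whole embryos without treatment at 4, 6 and 9 hpf (hours post fertilization), from whole embryos treated with RA at the same stages, and from ZF4, a fibroblastic cell line of zebrafish, with 2 arrays in each of the 7 groups. By the study's methods the embryos were of the Ekkwill strain and stayed in RA from the 2-cell stage until harvest, and the methods name untreated embryos on this array only at 9 hpf, where the labels give all 3 stages and were followed. The labels carry no genetic alteration for any group. Whether replicate arrays stand for separate clutches or cultures is not stated, and the p-values then cover the spread among the samples alone, which may be technical. Where a transcript was low in a whole embryo, fewer expressing cells and less RNA in each cell cannot be told apart.

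The arrays carry tag controls that match no zebrafish gene, and the 95th percentile of their 238 values, 5.30, was used as the background level. A value at or below it gives only an upper bound for the transcript. Array medians lay between 6.12 and 6.32, and replicate arrays had a correlation across probe sets of 0.929 to 0.952. The median tag value was 1.83 and 1.94 on the untreated 6 hpf arrays and 3.27 and 3.91 on the untreated 9 hpf arrays, and it lay between 2.91 and 3.79 on the RA arrays of those stages. On the untreated 4 hpf arrays it was 2.59 and 2.21, and on the RA 6 hpf arrays 3.56 and 3.39. These medians move with the comparisons of untreated 9 with 6 hpf, untreated 9 with 4 hpf, and RA with untreated embryos at 6 hpf. Their part in these comparisons was not tested. In ZF4 8 of 10 measured fibroblast markers lay above background on both arrays, although the surface marker thy1 did not. In the embryo groups 3 to 7 of the 10 did, and of all probe sets 58.5% did in ZF4. Against untreated 9 hpf embryos 5 of the 10 were higher in ZF4 and 2 lower by limma, beside 21.6% and 23.8% of all probe sets. Of 7 early embryo markers 0 lay above background on both ZF4 arrays, against 6 or 7 of 7 in the embryo groups. Of 8 enveloping layer markers 3 did in ZF4, of 6 yolk syncytial layer markers 0 and of 5 markers of embryo mesoderm 2. In the embryo groups these counts were 2 to 8, 2 to 4 and 1 to 5.

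The 9 genes differed in whether their signal lay above background at 9 hpf, and for hoxb7a this depended on the probe set. At 4 and 6 hpf, with and without RA, 0 of the 9 genes lay above background on both arrays. Of all probe sets 55.1% to 57.8% did in those groups. None of the 136 values of the 17 probe sets of the 9 genes on those 8 arrays was above background, the highest being 4.89. Of all probe sets 56.6% lay above background on both untreated 9 hpf arrays and 56.7% on both RA 9 hpf arrays. At 9 hpf hoxc8a, hoxa9a, hoxb9a, hoxc9a and hoxb10a lay above background on all 4 arrays, untreated and RA alike. That pattern, above background on every 9 hpf array and at or below it on every earlier one, held for 5 of 9 genes and 10 of their 17 probe sets, against 127 of 15502 probe sets of the array (0.819%) and 1 of the 33 other hox genes (hoxc6b), each read from its probe set of highest mean. On the untreated arrays alone it also held for 6 of the 21 measured hox genes of groups 1 to 6. All of these but hoxc6b were above background on at least 1 RA array of 4 or 6 hpf. The pattern in untreated embryos is therefore not particular to the posterior genes. By order alone, all 4 arrays of 9 hpf stood above all 8 earlier arrays in 6 of 9 genes, the sixth being hoxb7a, and in 11 of 17 probe sets, against 11.1% of all probe sets. The genes were chosen with earlier results of these arrays known, so the shares are a description.

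**Figure D1:**
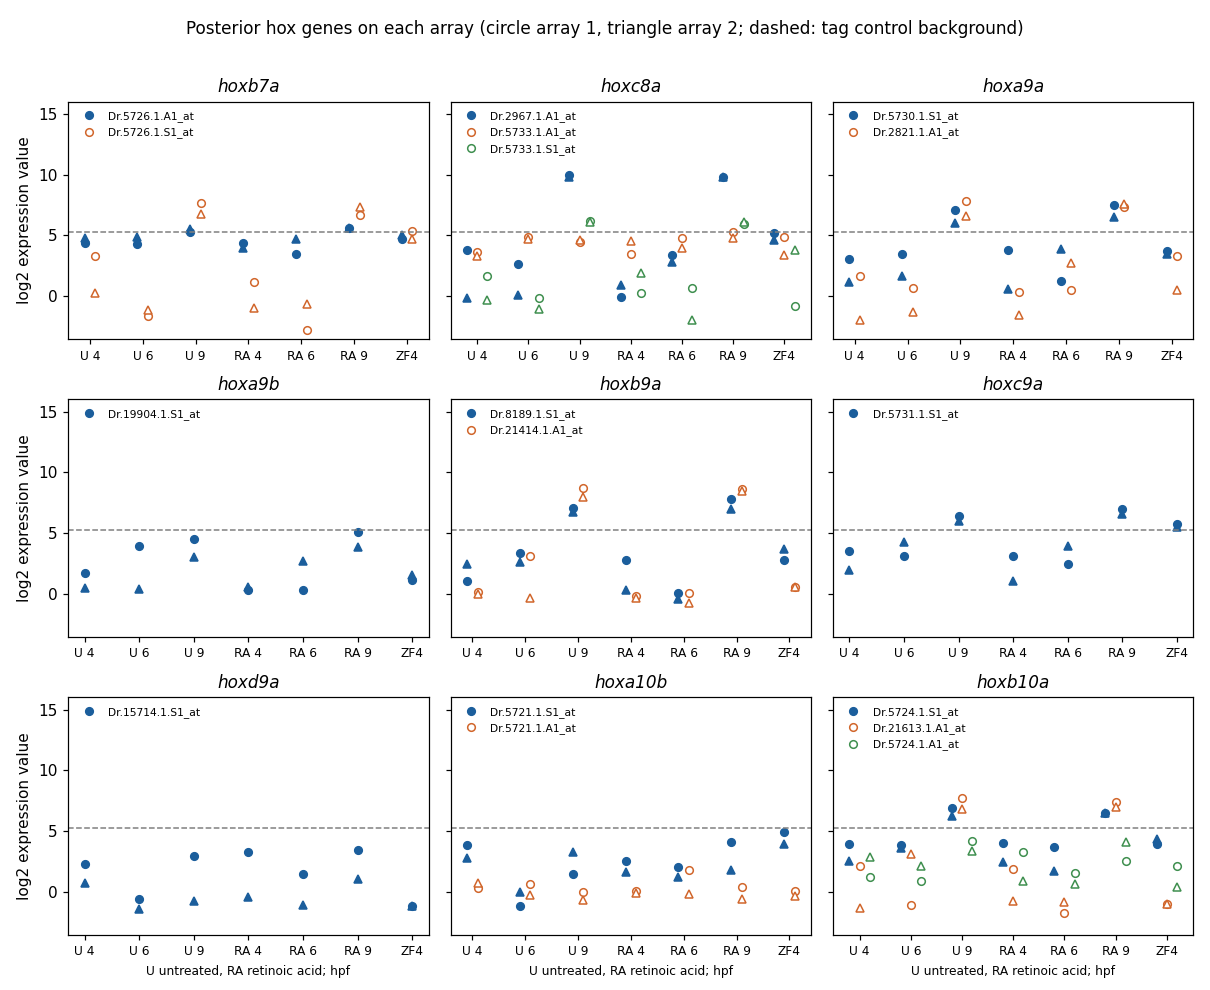
Log2 expression value of each posterior hox gene on each of the 14 arrays, by group (U untreated, RA retinoic acid, numbers in hpf), with filled points for the probe set with the highest mean and open points for the others; the dashed line is the background level of 5.30. In hoxc8a, hoxa9a, hoxb9a, hoxc9a and hoxb10a the filled points of both 9 hpf groups stand above the line and those of all earlier groups below it, while hoxa9b, hoxd9a and hoxa10b stay below it throughout.

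Among the probe sets with the highest mean, hoxc8a had the highest lower bound on its increase; this gene in mouse helps to set the identity of thoracic vertebrae and of motor neurons near the forelimb. Untreated embryos gave 3.81 and -0.11 at 4 hpf, 2.65 and 0.10 at 6 hpf, and 9.997 and 9.81 at 9 hpf. RA embryos gave -0.03 and 0.91, 3.38 and 2.78, and 9.76 and 9.80 at those stages, and ZF4 gave 5.18 and 4.65. Both 9 hpf groups therefore stood far above all other arrays, and the earlier groups and ZF4 lay below background with large gaps between their arrays. From 6 to 9 hpf hoxc8a rose at least 24.3-fold in untreated embryos (8.53 ± 1.16, SE, on the log2 scale, adjusted p = 0.0018, limma) and at least 22.3-fold in RA embryos (6.70 ± 1.16, adjusted p = 0.0040). Here and below, a fold written as "at least" compares the mean of the brighter group with the background level.

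The group 9 gene hoxb9a, whose mouse counterpart helps to shape the thoracic skeleton, was the other gene called in untreated embryos. Its values were 1.07 and 2.46, 3.39 and 2.65, and 7.04 and 6.79 in untreated embryos of 4, 6 and 9 hpf, and 2.84 and 3.72 in ZF4. In RA embryos they were 2.82 and 0.39, 0.10 and -0.37, and 7.85 and 7.03. The 9 hpf arrays again lay above all others without overlap. hoxb9a rose at least 3.07-fold from untreated 6 to 9 hpf (3.90 ± 0.88, adjusted p = 0.0201) and at least 4.40-fold in RA embryos (7.58 ± 0.88, adjusted p = 0.0005). The second probe set of hoxb9a ran from -0.71 to 3.17 on the 8 arrays of 4 and 6 hpf and from 7.98 to 8.75 on the 4 arrays of 9 hpf, and it was called in both series as well (adjusted p = 0.0027 untreated, 0.0005 with RA).

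hoxb10a belongs to a paralog group whose genes keep ribs from forming in the lumbar region of the mouse, and mammals have no group 10 gene in their HoxB cluster. It read 3.92 and 2.59 at 4 hpf, 3.91 and 3.65 at 6 hpf and 6.91 and 6.25 at 9 hpf in untreated embryos, and 4.05 and 2.47, 3.69 and 1.70, and 6.52 and 6.51 in RA embryos. The groups of 9 hpf did not overlap with the earlier ones in either series. The change from 6 hpf, at least 2.42-fold in untreated embryos, missed the threshold there (2.80 ± 0.81, adjusted p = 0.0549), while hoxb10a rose at least 2.32-fold in RA embryos (3.83 ± 0.81, adjusted p = 0.0103). A second probe set was called in both series, at 6.27 ± 1.51 (adjusted p = 0.0262) without RA and 8.43 ± 1.51 (adjusted p = 0.0047) with it.

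hoxa9a, whose mammalian counterpart is known from blood progenitors, also stood higher at 9 hpf than at the earlier stages. So did hoxc9a, whose counterpart in mouse sets the columns of thoracic motor neurons. hoxa9a read 3.45 and 1.69 at 6 hpf and 7.11 and 6.00 at 9 hpf in untreated embryos, and 1.28 and 3.92 and then 7.50 and 6.53 in RA embryos. hoxc9a read 3.13 and 4.29 and then 6.42 and 6.02 without RA, and 2.51 and 3.98 and then 6.97 and 6.58 with it. For both genes every 9 hpf array stood above every 6 hpf array. In untreated embryos neither gene passed the threshold between these stages (hoxa9a 3.99 ± 1.25, adjusted p = 0.0734; hoxc9a 2.51 ± 0.87, adjusted p = 0.105). In RA embryos both did, hoxa9a at least 3.28-fold (adjusted p = 0.0371) and hoxc9a at least 2.77-fold (adjusted p = 0.0209). The second probe set of hoxa9a, with 0.69 and -1.30 at 6 hpf and 7.85 and 6.62 at 9 hpf in untreated embryos, was called there (7.54 ± 1.30, adjusted p = 0.0059).

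Counted over the 9 genes, 2 rose and 0 fell between untreated 6 and 9 hpf, against 4.37% of all probe sets higher and 5.74% lower. Of the 21 measured hox genes of groups 1 to 6, 7 rose and 0 fell in that comparison, so a rise was not particular to the 9 genes. By limma 6 of 9 had an unadjusted p under 0.05, beside 3624 of all 15502 probe sets. In RA embryos 5 of the 9 rose and 0 fell between these stages, against 6.77% of all probe sets higher and 9.26% lower. There 3 of the 21 genes of groups 1 to 6 rose and 0 fell. The median change of the 9 genes was 2.80 without RA and 3.53 with it, beside 0.01 and 0.06 for all probe sets; the 6 hpf values of the 9 genes lay below background, so these medians measure no fold. Over the 17 probe sets the calls were 7 and 10, and every one of these 17 calls was an increase. With each array left out in turn hoxb9a was no longer called in untreated embryos (adjusted p 0.0632 to 0.123 over the 4 arrays), and in RA embryos hoxa9a was no longer called whichever of the 4 arrays was left out (0.0507 to 0.222), hoxc9a without RA 6 hpf array 1 or either RA 9 hpf array (0.0688 to 0.133) and hoxb10a without RA 6 hpf array 2 or either RA 9 hpf array (0.0502 to 0.0899). hoxc8a was called under all of these omissions in both series, and hoxb9a in the RA series. In untreated embryos the second probe set of hoxb10a lost its call without 6 hpf array 1 or either 9 hpf array (0.0808 to 0.165) and that of hoxa9a without 6 hpf array 2 (0.0575) or 9 hpf array 1 (0.0503), while quantile normalization, a pseudocount of 32 or the mean of a gene's probe sets called 5 genes in place of 2.

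**Figure D2:**
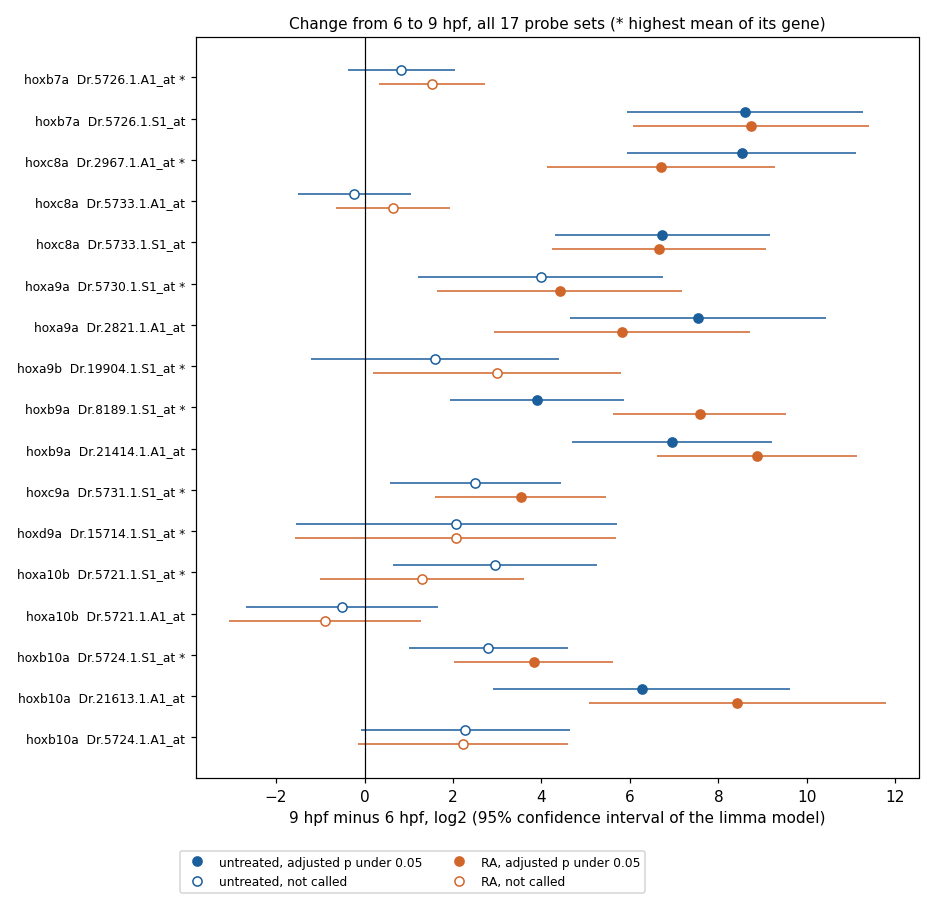
Change from 6 to 9 hpf of each of the 17 probe sets in untreated embryos (blue) and RA embryos (orange) on the log2 scale, with the 95% confidence interval of the limma model; filled points passed the threshold (adjusted p under 0.05) and stars mark the probe set with the highest mean of its gene. The filled points are 7 in blue and 10 in orange, all to the right of 0.

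Over the longer interval from untreated 4 to 9 hpf hoxc8a, hoxa9a, hoxb9a, hoxc9a and hoxb10a all rose, 5 of 9 genes against 21.8% of all probe sets higher and 24.3% lower. Of the 21 measured hox genes of groups 1 to 6, 10 rose and 0 fell over it. The adjusted p was 0.0003 for hoxc8a, 0.0137 for hoxa9a, 0.0008 for hoxb9a, 0.0079 for hoxc9a and 0.0065 for hoxb10a. The bounds on the folds do not depend on the earlier stage, since both 4 and 6 hpf lay below background: they were at least 24.3-fold, 2.39-fold, 3.07-fold, 1.89-fold and 2.42-fold in that order. Without untreated 4 hpf array 2 hoxa9a (adjusted p = 0.0903) and hoxc9a (0.0613) were no longer called, nor was hoxa9a without untreated 9 hpf array 1 (0.0829). Between untreated 4 and 6 hpf 0 of 9 genes rose and 1 fell, against 19.1% higher and 20.9% lower of all probe sets. That gene, hoxa10b, went from 3.88 and 2.77 to -1.10 and 0.04 (-3.86 ± 1.04, adjusted p = 0.0133), all values below background, and the call was lost without array 1 of either group (0.0897 and 0.0832).

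hoxa9b, hoxd9a and hoxa10b lay at or below background on every array of all 7 groups. hoxa9b, the duplicate of hoxa9a, came closest, with 4.52 and 3.08 in untreated and 5.12 and 3.89 in RA embryos of 9 hpf, where hoxa9a was above background on each of the 4 arrays. hoxd9a, from the cluster that patterns the distal fins and limbs, read 2.94 and -0.73 and then 3.43 and 1.1 in those groups. hoxa10b read 1.52 and 3.33 and then 4.08 and 1.83, and its highest value, 4.92, was on a ZF4 array. None of the 3 differed between 6 and 9 hpf past the threshold in either series, and with both groups below background no fold can be given. For these 3 genes the arrays set an upper bound and do not show that the transcript was missing.

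Of the 9 genes, those above background at 9 hpf belonged to the hoxaa, hoxba and hoxca clusters, and those below it to the hoxab and hoxda clusters. The split does not extend to whole clusters. In hoxaa 1 of 6 measured genes lay above background on both untreated 9 hpf arrays, in hoxba 5 of 10 and in hoxca 3 of 9. On both RA 9 hpf arrays 3 of 6, 7 of 10 and 5 of 9 did. Of all probe sets 56.6% did in untreated and 56.7% in RA embryos. In RefSeq gene order hoxb10a, hoxb9a, hoxb8a and hoxb7a are neighbours, as are hoxc9a and hoxc8a, hoxa10b and hoxa9b, and hoxd9a and hoxd10a. The hoxb8a probe set, between hoxb9a and hoxb7a, was below background on all 14 arrays. Its name ends in A1, as do those of the probe sets of hoxb7a, hoxc8a and hoxb10a that stayed low beside an S1 form. Other probe sets ending in A1 were high on every 9 hpf array. They were those of hoxc8a (9.76 to 9.997), hoxb9a (7.98 to 8.75), hoxa9a (6.62 to 7.85) and hoxb10a (6.84 to 7.72). All 5 measured genes of the hoxab cluster were below background on every array of both 9 hpf groups, and in the hoxda cluster hoxd4a alone of 6 was above it, on 1 of 2 untreated and both RA arrays. The clusters were set side by side after these values were seen.

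**Figure D3:**
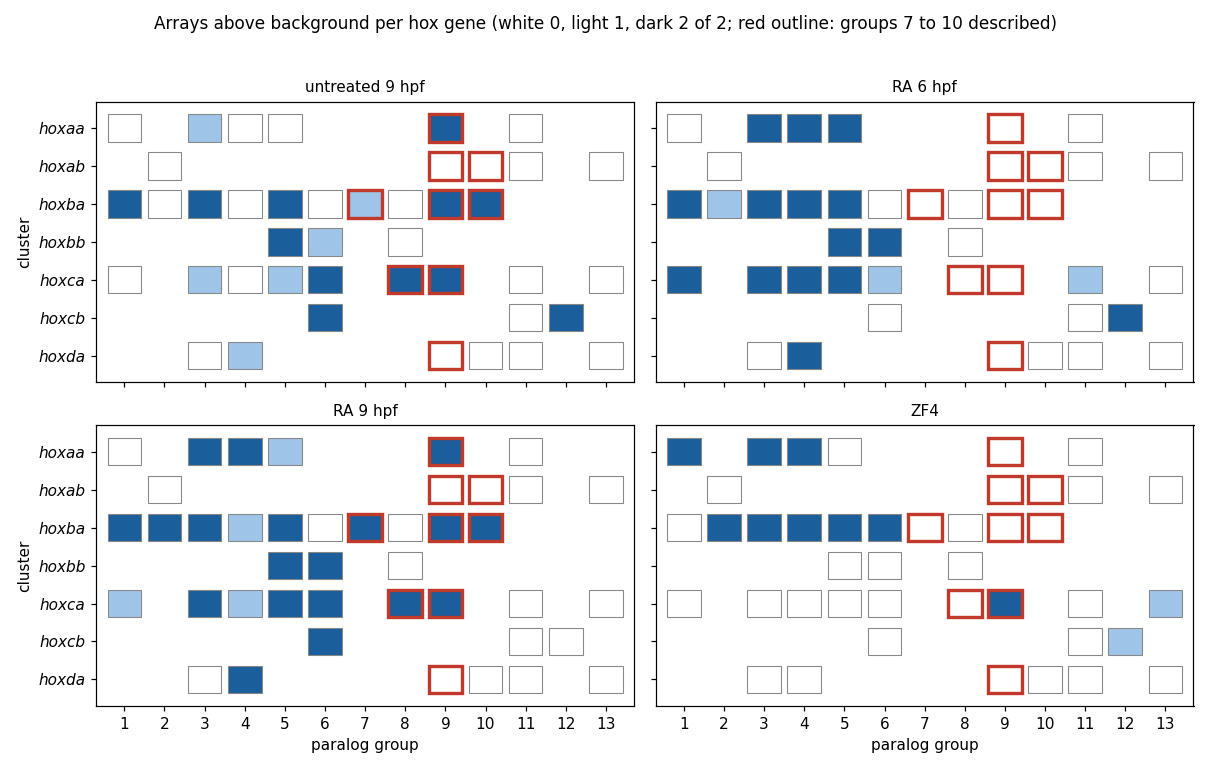
Number of arrays (0, 1 or 2 of 2) above the background level of 5.30 for each of the 42 measured hox genes, arranged by cluster and paralog group, in untreated 9 hpf, RA 6 hpf and RA 9 hpf embryos and in ZF4; red outlines mark the 9 posterior genes. At RA 6 hpf 14 of the 21 genes of groups 1 to 6 are dark and all 9 outlined genes are white, and in ZF4 hoxc9a is the only outlined gene that is dark. Of all probe sets 57.8% lay above background on both arrays at RA 6 hpf and 58.5% in ZF4.

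For hoxb7a the result depended on the probe set. The mouse counterpart of hoxb7a is active in the duct that gives rise to the kidney collecting system. The probe set with the highest mean, whose name ends in A1, stayed near the background level, with 4.29 and 4.89 at 6 hpf and 5.29 and 5.56 at 9 hpf in untreated embryos and 3.47 and 4.67 and then 5.59 and 5.62 in RA embryos. Its change from 6 to 9 hpf was 0.83 ± 0.54 (adjusted p = 0.416) without RA and 1.53 ± 0.54 (adjusted p = 0.0855) with RA. The other probe set, whose name ends in S1, went from -1.65 and -1.09 to 7.65 and 6.80 in untreated embryos and from -2.78 and -0.63 to 6.70 and 7.36 in RA embryos. By that probe set hoxb7a rose at least 3.79-fold without RA (8.60 ± 1.2, adjusted p = 0.0020) and at least 3.32-fold with RA (8.74 ± 1.2, adjusted p = 0.0012), and it kept these calls with any array left out. The 2 probe sets rise and fall together over the 14 arrays (r = 0.82, a description over arrays that share groups). With this probe set the genes above background on all 4 arrays of 9 hpf are 6 of 9.

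The full names of the hoxb7a probe sets, printed in the plot of values by array, differ only in the letter A or S, and 3 other genes have such a pair. In hoxc8a the S form, which is not the probe set with the highest mean, ran from -1.97 to 1.91 on the 8 arrays of 4 and 6 hpf and from 5.93 to 6.22 on the 4 of 9 hpf, while the A form ran from 3.31 to 4.88 and from 4.48 to 5.28 and was never above background. In hoxb10a the S form was above background on all 4 arrays of 9 hpf and the A form, at 2.53 to 4.23, on none. In hoxa10b both forms were below background on all arrays. What the letters stand for, and which strand each probe set reads, is not given in the sources used here, and levels of different probe sets are not comparable with each other. Binding of a probe set to transcripts of a paralog was not tested.

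No posterior gene passed the threshold for a difference between RA and untreated embryos at any of the 3 stages. At 4 hpf 0 of 9 genes differed between RA and untreated embryos by limma, beside 0.0903% of all probe sets called. An unadjusted p under 0.05 was found for 0 of the 9, beside 846 of all 15502 probe sets. At 6 hpf 0 of 9 differed, beside 0.284% of all probe sets called. At an unadjusted p under 0.05 there were 1164 of all 15502 probe sets and 1 of the 9 genes. That 1 was hoxb9a, at 0.10 and -0.37 in RA and 3.39 and 2.65 in untreated embryos (-3.16, 95% confidence interval -5.12 to -1.2, adjusted p = 0.317), all of them below background. At 9 hpf 0 of 9 differed, in a comparison where 0.00% of all probe sets were called. There 0 of the 9 had an unadjusted p under 0.05, beside 424 of all 15502 probe sets. All 17 probe sets gave the same count of 0 at each stage. At 4 and 6 hpf every value of these probe sets lay below background in both groups. The counts at 4 and 6 hpf therefore cannot show a difference with RA or its absence.

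At 9 hpf the signal of 5 genes lay above background on all 4 arrays. RA minus untreated was -0.12 for hoxc8a (95% confidence interval -2.71 to 2.46), 0.46 for hoxa9a (-2.31 to 3.23), 0.52 for hoxb9a (-1.44 to 2.48), 0.55 for hoxc9a (-1.38 to 2.49) and -0.06 for hoxb10a (-1.86 to 1.74). The RA and untreated arrays overlapped in 3 of these 5 genes. In hoxc9a both RA arrays were the higher ones and in hoxc8a both were the lower ones, by small margins. How many of all probe sets overlapped was not counted, so no result is read from these orders. All 5 intervals reach beyond 1 on the log2 scale in both directions. Each rests on a spread estimated over all 12 embryo arrays, the earlier ones below background included, where the arrays of a group differed by a median of 1.36 over the 9 genes. At 9 hpf the arrays of a group differed by 0.01 to 1.11 in these 5 genes, and the 4 arrays of hoxc8a lay between 9.76 and 9.997. The difference between the RA effects at 9 and 6 hpf was called in 0 of 9 genes by limma (0.00645% of all probe sets), with 1 at an unadjusted p under 0.05, hoxb9a, at 3.68 (0.91 to 6.45, adjusted p = 1.00).

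**Figure D4:**
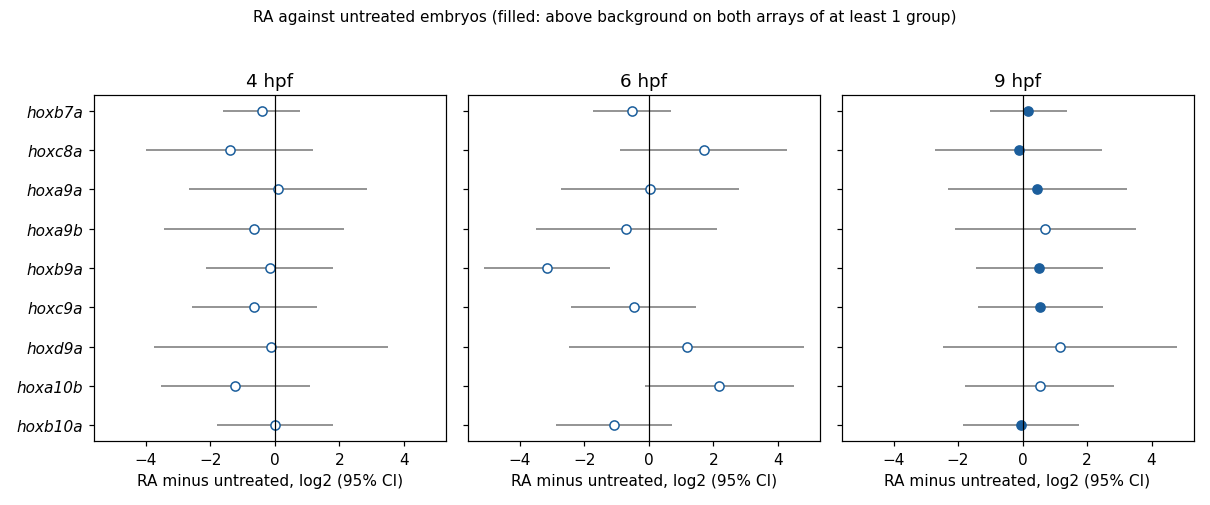
RA minus untreated embryos on the log2 scale for each of the 9 posterior hox genes at 4, 6 and 9 hpf, with the 95% confidence interval of the limma model; filled points lie above background on both arrays of at least 1 of the compared groups. All points of 4 and 6 hpf are open, and at 9 hpf the 6 filled points lie between -0.12 and 0.55.

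The hox genes of groups 1 to 6 are given beside these values, since RA is known to induce them. At 6 hpf 8 of 21 rose with RA and 0 fell by limma, beside 0.284% of all probe sets called in either direction. Among the 8 were hoxb5b at least 56.9-fold (adjusted p = 0.0067), hoxa4a at least 31.6-fold (adjusted p = 0.0033) and hoxb6b at least 5.30-fold (adjusted p = 0.0308). The median change of all 21 genes was 3.71, beside -0.02 for all probe sets. All 21 lay below background in untreated embryos of 6 hpf, so this median measures no fold. No such median is set beside it for the 9 posterior genes, which lay below background in both groups. At RA 6 hpf 14 of 21 lay above background on both arrays and 0 of the 9 posterior genes did, beside 57.8% of all probe sets. The other 12 measured genes of groups 8 to 13 had 0 limma calls in either direction at 6 hpf. An unadjusted p under 0.05 was found for 1 of these 12, beside 1164 of all 15502 probe sets. At 9 hpf limma called 0 of 21 genes of groups 1 to 6, where 0.00% of all probe sets were called. An unadjusted p under 0.05 was found for 9 of the 21 genes of groups 1 to 6, beside 424 of all 15502 probe sets. The median change of these 21 genes with RA at 9 hpf was 1.82, beside -0.01 for all probe sets. Of the 21, 6 lay above background on both untreated 9 hpf arrays, beside 56.6% of all probe sets, so it measures no fold either. The difference between the groups of hox genes was not tested.

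Lists of posterior patterning genes, Hox cofactors and retinoic acid genes were read beside the 9 genes. Whether their members act on the 9 genes was not tested. Among 17 posterior patterning genes 12 rose and 1 fell between untreated 4 and 6 hpf, beside 19.1% higher and 20.9% lower of all probe sets. Of the 17, 14 lay above background on both untreated 6 hpf arrays, beside 57.0% of all probe sets. From 6 to 9 hpf, where 4.37% of all probe sets were higher and 5.74% lower, 2 of the 17 rose and 0 fell. They were cdx1a, a caudal homeobox gene, and tbx6, a T-box gene of presomitic mesoderm, cdx1a at least 3.74-fold (adjusted p = 0.0328) and tbx6 5.47-fold (2.45 ± 0.37, adjusted p = 0.0030). Between RA and untreated embryos limma called 0 of the 17 at 6 hpf and 0 at 9 hpf. An unadjusted p under 0.05 was found for 1 and 0 of the 17, beside 1164 and 424 of all 15502 probe sets. At 4 hpf 1 of the 17 was higher with RA and 0 were lower, beside 0.0903% of all probe sets called. That gene was sp5l, a Wnt target, at least 11.2-fold higher (adjusted p = 0.0130). There 5 of the 17 had an unadjusted p under 0.05, beside 846 of all 15502 probe sets. Of 12 Hox cofactors 3 rose from 6 to 9 hpf in untreated embryos, all from below background: the lower bounds were 27.5-fold for meis3, 17.8-fold for meis2b and 13.8-fold for meis1b. meis3 and meis2b also rose with RA at 6 hpf, at least 6.62-fold and 12.8-fold, at a stage where the 9 genes were all below background. In that comparison 0.284% of all probe sets were called. Of 18 genes of retinoic acid synthesis, breakdown and reception 4 rose between untreated 6 and 9 hpf.

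In ZF4 hoxc9a was the only one of the 9 genes above background on both arrays, at 5.77 and 5.53, beside 58.5% of all probe sets. By limma hoxc9a did not differ past the threshold from untreated 9 hpf embryos at 6.42 and 6.02 (-0.58, 95% confidence interval -2.38 to 1.22, adjusted p = 0.621). Against those embryos 0 of 9 genes were higher and 3 were lower in ZF4, beside 21.6% of all probe sets higher and 23.8% lower. hoxc8a was at least 24.3-fold lower (adjusted p = 0.0030), hoxb9a at least 3.07-fold lower (adjusted p = 0.0045) and hoxb10a at least 2.42-fold lower (adjusted p = 0.0241), while hoxa9a, at 3.76 and 3.50, missed the threshold (-2.93 ± 1.19, adjusted p = 0.0646). The second probe set of hoxa9a was called lower (-5.31 ± 1.38, adjusted p = 0.0076), and over the 17 probe sets 7 were lower and 0 higher. That call of hoxa9a was lost without untreated 9 hpf array 1 (0.0561) or ZF4 array 2 (0.0816). The call for hoxb10a was lost without untreated 9 hpf array 1 (0.127) or either ZF4 array (0.112 and 0.0628), and hoxc9a was not above background in ZF4 when the highest tag value, 5.83, was taken as the level. The S form of hoxb7a read 5.40 and 4.72 in ZF4 and was above background on 1 array.

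In the same hoxba cluster the genes of groups 5 and 6 stood high in ZF4. hoxb6a was at least 64.1-fold higher in ZF4 than in untreated 9 hpf embryos (adjusted p = 7.3e-07) and hoxb5a was higher by 5.50 ± 0.57 (adjusted p = 1.2e-05), with means of 11.30 and 11.60 in ZF4. hoxb2a, hoxb3a, hoxb4a, hoxb5a and hoxb6a were above background on both ZF4 arrays. hoxb7a, hoxb8a, hoxb9a and hoxb10a were below it on both, and so was hoxb1a, at the anterior end of the cluster (mean 4.01). Each gene was read from its probe set of highest mean. In the hoxca cluster hoxc9a was above background on both ZF4 arrays and its neighbour hoxc8a on neither. Of all probe sets 58.5% were above background on both ZF4 arrays. Of the 17 posterior patterning genes 14 were lower and 0 higher in ZF4 than in untreated 9 hpf embryos, beside 23.8% of all probe sets lower and 21.6% higher.

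The genes whose values ran most closely with the posterior hox genes over the 14 arrays, with values below background raised to it, were sought among 6772 genes. For hoxc8a these were shhb, a Hedgehog ligand of the midline (r = 0.999), lmo3 (0.998) and the Bmp and Activin inhibitor fsta (0.996). For hoxb9a they were fsta (0.984), cdx1a (0.984) and crabp2a, a binding protein for retinoic acid (0.982), and for hoxc9a crabp2a (0.978), hand2 (0.964) and hoxb9a (0.963). For hoxa9a they were pax2a (0.977), hoxc6b (0.9751) and hoxb9a (0.969), and for hoxb10a olig2 (0.996), shhb (0.988) and fn1b (0.985). For the hoxb7a probe set with the highest mean the closest genes reached only 0.885 (eps8l1a), 0.884 (b3gnt7l) and 0.872 (dchs1b). The arrays fall into a few groups, and with most values at the background level such a coefficient mainly records that a gene was above background at 9 hpf and not elsewhere.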

How the data were processed

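Total RNA of 12 embryo samples and 2 ZF4 samples was hybridised to Affymetrix Zebrafish arrays. The authors used expresso of the R package affy, with mas5 background correction and invariantset normalization (version 2.15.2 in the submitters' processing notes), and deposited log2 values per probe set; the summary method and mismatch correction are not given in the sources used here, and the log2 scale was inferred from the values (-5.30 to 13.9). The authors' present calls were not used here. No further normalization was applied, although a shift of array medians can move small changes.

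Of 15617 probe sets 115 controls were left out and 15502 tested. Symbols came from the platform annotation and gene tables supplied. Comparisons were made in R 4.3.3 with limma 3.58.1: group means, empirical Bayes with intensity trend, two-sided, Benjamini-Hochberg over 15502 probe sets, threshold 0.05, on the 12 embryo arrays, or all 14 for ZF4. In data simulated for untreated 9 against 6 hpf (15502 probe sets) 20 of 50 changes of 1, 43 of 50 of 2 and 99 of 100 of 4 on the log2 scale were recovered. These changes were placed only in bright probe sets, with means above that of every probe set of the 9 genes (highest 4.76). The rates therefore do not give the power for these genes. The number of arrays and the background level limit the precision. All 9 genes were named throughout. For the other lists at most 3 called genes with the largest changes per comparison were named, and 3 most alike genes per detected gene. hoxb8a, hoxd4a, hoxd10a, hoxb1a, hoxb2a, hoxb3a and hoxb4a were named after their values were seen. Members and lists were chosen with earlier results of these data known.

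Alternatives were quantile normalization, a common median, a pseudocount of 32, a filter on low values, no intensity trend, other samples in the fit, the mean of a gene's probe sets, the replicate number as a block, each array left out, and other background levels. Python with pandas prepared the tables.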

Additional observations from a re-analysis of the deposited data

How the results depend on the processing

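Of 35 changes of single probe sets that passed the threshold, 255 of 260 values under alternatives other than leaving out an array kept direction and call and 5 lost the call; with 1 array left out 105 of 140 kept it and 35 lost it, and 0 of the 35 reversed. Between untreated 6 and 9 hpf 2 genes were called, but 5 by quantile normalization, 5 with a pseudocount of 32 and 5 with the mean of a gene's probe sets, and 1 whichever array was left out. Between untreated 4 and 6 hpf the 1 call became 0 with the pseudocount, 0 with low probe sets filtered out (6 of 9 genes passed that filter), 0 with the mean of probe sets, and 0 to 1 with an array left out. The 5 calls between untreated 4 and 9 hpf became 3 to 5, and the 5 between RA 6 and 9 hpf 2 to 3, with an array left out. The 3 genes lower in ZF4 were 5 by quantile normalization and 5 with the pseudocount, and 0 genes were above background in ZF4 at the highest tag value. The second hoxb9a probe set changed by 1.33 from untreated 4 to 6 hpf (not called) and by -0.42 to 3.08 with an array left out. The cause of these shifts was not tested.

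Over all probe sets 1567 calls between untreated 6 and 9 hpf became 574 to 903 with an array left out, 2485 between RA 6 and 9 hpf became 945 to 1628, 44 for RA at 6 hpf ranged from 1 to 93 and 14 at 4 hpf from 0 to 114 over all alternatives. Setting all arrays to a common median shifted the median change over all probe sets between untreated 4 and 6 hpf (0.05 to 0.20) and between 4 and 9 hpf (0.06 to 0.19).

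The labels do not pair samples by replicate number. With the replicate block untreated 6 to 9 hpf had 3 genes called in place of 2, and the other comparisons kept their counts of 1, 5, 0, 0, 0, 5, 0 and 3. Differences between the arrays of a group correlated at 0.27 between RA and untreated 4 hpf and at -0.38 between RA and untreated 9 hpf. In the other comparisons the correlation lay between -0.07 and 0.08. With crossed numbers as a block at 9 hpf, chosen after seeing the data, 0 of 9 genes and 0 probe sets were called.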
